A study of Homo sapiens with 9 samples.

Results

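The 45 genes described here are the integrin subunits and focal adhesion proteins among the 28216 gene symbols of a read count table. They are a list of symbols drawn up with earlier results of these data known, although no threshold on their values was used, and comprise 17 integrin alpha subunits, 8 integrin beta subunits and 20 adaptors, scaffolds and kinases. All 45 symbols were found in the table. RNA was sequenced from 9 libraries in 3 groups of 3. PC3 cells, a line grown from a bone metastasis of prostate cancer that does not depend on androgen, were labelled wild type, had no treatment and grew in F12K medium with 10% serum. LNCaP cells (clone FCG, labelled wild type), a line from a lymph node metastasis that responds to androgen, were kept for 24 h in 10% charcoal-stripped serum without phenol red and then for 48 h with 10 nM dihydrotestosterone (DHT) or with vehicle (0.01% ethanol). The labels name DHT, whereas the main text of the study names R1881 as the androgen. Each line stands for 1 donor, and the medium and serum differed between the lines, so that cell line and culture cannot be told apart in any comparison of PC3 with LNCaP. Nothing in the labels says that the replicates came from separate cultures, and p-values therefore measure the spread between these libraries, which may be technical.

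Integrins are surface receptors made of an alpha and a beta chain, and the pair decides which matrix protein is bound: collagen, laminin, or the RGD motif of fibronectin and vitronectin. Inside the cell talins and kindlins switch integrins on, and the complex of ILK, PINCH and parvin, together with vinculin, paxillin, zyxin and tensins, couples them to actin. Focal adhesion kinase and SRC pass on the signal. In the normal prostate, basal cells rest on a laminin-rich basement membrane through integrins that contain the alpha6 chain, and prostate cancers are known for losing the beta4 partner.

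Each PC3 library held 22444083 to 25640325 counts on genes, and LNCaP libraries held 21094326 to 23460708 with DHT and 17397706 to 18674795 with vehicle. A count of 0 allows up to 3 counts, which correspond to 0.118 to 0.16 CPM (counts scaled to library size). All levels below are CPM scaled with TMM factors over the 9 libraries, unless counts are named. Of 8 luminal, androgen-responsive transcripts used to check the labels, 8 were detected in both LNCaP groups and 4 in PC3 cells, where KLK2 had 0 counts. Their summed level was 11862 to 12336 CPM with DHT, 3498 to 3863 CPM with vehicle and 56.4 to 74.4 CPM in PC3 cells. In the opposite direction, 10 transcripts known to be high in PC3 cells had a median of 0.104% to 0.955% of their PC3 level in the 6 LNCaP libraries, highest in DHT replicate 1. Their summed level was 4038 to 4429.7 CPM in PC3 cells, 33.8 to 56.2 with DHT (9 of 10 detected) and 13.4 to 22.1 with vehicle (5 of 10 detected). CXCL8 was the highest of them with DHT, at 19.8%, 18.9% and 15.3% of its PC3 level, and had at most 0.236% with vehicle. PC3 replicate 3 stood apart from the other PC3 libraries, with a chi-square per gene of 29.8 and 51.4 against replicates 1 and 2, compared with 10.9 between those 2.

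**Figure D1:**
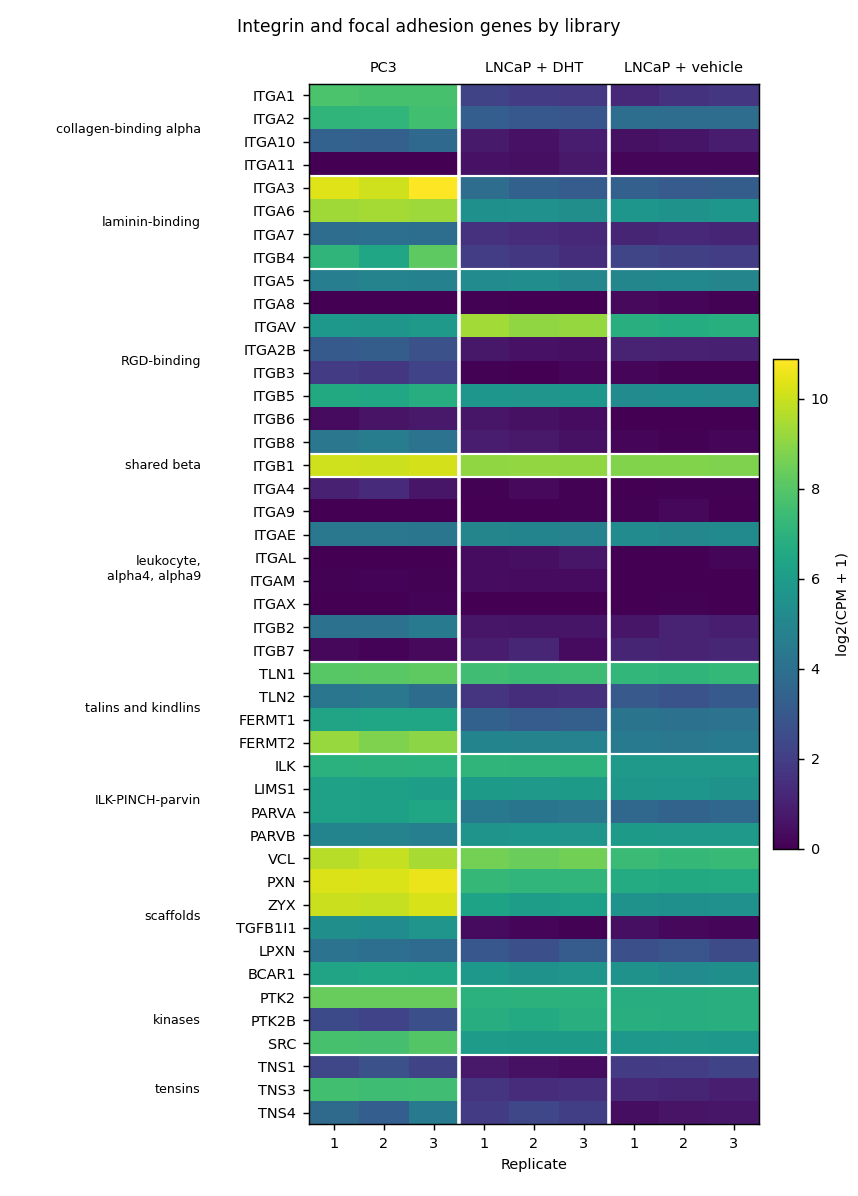
Level of the 45 genes in the 9 libraries as log2(CPM + 1), where colour gives the level, rows are genes grouped by role and columns are replicates 1 to 3 of PC3 cells, LNCaP cells with DHT and LNCaP cells with vehicle. ITGAV is brightest in the 3 DHT libraries and PTK2B is dark in the 3 PC3 libraries, while most other rows with any signal are brightest in PC3 cells.

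PC3 cells held more RNA of most integrin and focal adhesion genes than LNCaP cells. Against LNCaP cells with DHT, 35 of the 45 genes passed the filter of more than 3 CPM in at least 3 libraries, 24 were called higher in PC3 cells and 2 lower (ITGAV and PTK2B), and 9 were not called. A gene was called where edgeR's quasi-likelihood test gave an adjusted p-value under 0.05 over all genes tested and the fold change was at least 2. By that rule 46.0% of all 12541 genes tested were called, 24.0% higher and 22.1% lower. Against LNCaP cells with vehicle, 35 passed, 27 were higher, 3 lower (ITGAV, PTK2B and PARVB) and 5 not called, and 43.2% of all 12686 genes tested were called, 22.2% higher and 21.0% lower. By the adjusted p-value alone all 35 genes passed in each comparison, as did 84.0% and 83.4% of all genes tested. With no filter on low counts 33 and 36 of the 45 genes were called, against 42.9% and 41.0% of all genes. The median log2 fold change was 3.12 and 2.35 over the 35 genes, and 0.04 and 0.03 over all genes tested. Of the 35, 10 against DHT and 9 against vehicle passed the filter with every library of 1 group under 3 CPM, and such genes had to differ. Those in both comparisons were ITGA7, ITGA10, ITGA2B, ITGB2, ITGB8, TGFB1I1 and TNS3. ITGB4, TLN2 and TNS1 were so against DHT alone, and ITGA1 and TNS4 against vehicle alone. Their adjusted p-values below are no added evidence of a difference. Both comparisons share the 3 PC3 libraries and are given side by side. In bulk RNA, fewer cells of a kind and less RNA per cell cannot be told apart.

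**Figure D2:**
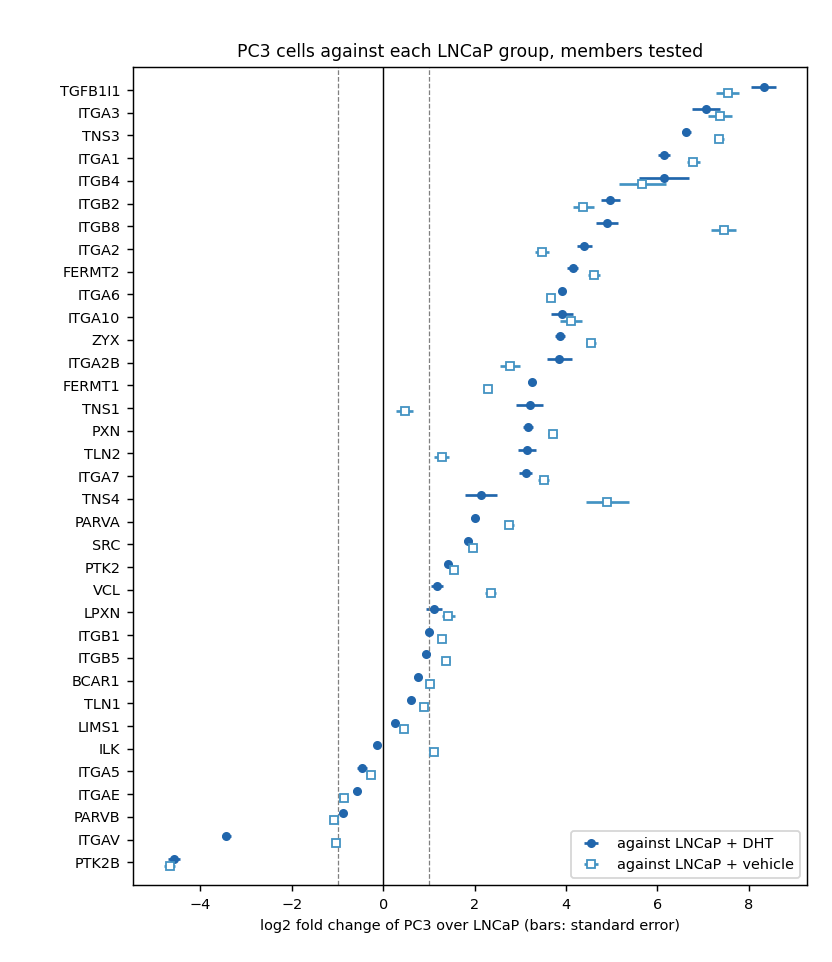
Log2 fold change of PC3 over LNCaP cells with DHT (filled circles) and with vehicle (open squares) for the 35 genes tested in each comparison, with bars for the standard error and dashed lines at a fold change of 2. PTK2B lies furthest to the left in both, ITGAV stands at -3.44 against DHT and -1.03 against vehicle, and TGFB1I1, ITGA3, TNS3 and ITGA1 furthest to the right against DHT.

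The collagen-binding alpha chains ITGA1, ITGA2 and ITGA10 were all higher in PC3 cells. ITGA1 (chromosome 5, 52787916 to 52959209, GRCh38) encodes a receptor for collagen IV in particular. Its level was 221, 209 and 211 CPM in the PC3 libraries, 3.65, 2.79 and 2.48 with DHT and 1.41, 1.97 and 2.28 with vehicle. The log2 fold change of PC3 cells was 6.15 ± 0.12, adjusted p = 1.42e-08 against DHT, and 6.79 ± 0.13, adjusted p = 1.36e-08 against vehicle (standard error, edgeR), and the groups did not overlap. ITGA2 (chromosome 5, 52989340 to 53094779) encodes the chain of the main receptor for fibrillar collagen I on epithelium. It had 139, 140.4 and 193 CPM in PC3 cells, 8.46, 7.01 and 6.61 with DHT and 14.2, 13.8 and 13.7 with vehicle, so that the DHT libraries were the lowest. PC3 cells exceeded DHT on the log2 scale by 4.4 ± 0.17, adjusted p = 1.75e-07, and vehicle by 3.48 ± 0.15, adjusted p = 2.79e-07 (edgeR). ITGA10, a chain best known from cartilage, was present at 10.3 ± 1.64 CPM (SD, n = 3) in PC3 cells and at 0.675 ± 0.209 and 0.582 ± 0.192 with DHT and vehicle, with log2 fold changes of 3.91 ± 0.24, adjusted p = 1.60e-06 and 4.1 ± 0.24, adjusted p = 1.49e-06 (edgeR). The remaining collagen receptor, ITGA11, had 0 counts in every PC3 library and is taken up with the low-count subunits.

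All 4 laminin-binding subunits were higher in PC3 cells in both comparisons. Of these, ITGA7 in both comparisons and ITGB4 against DHT are among the genes that had to differ. ITGA3 (chromosome 17, 50055968 to 50090481) pairs with the beta1 chain and binds laminin-332 and laminin-511. It reached 1286, 1085 and 1872 CPM in PC3 cells, 13.8, 9.51 and 8.0 with DHT and 9.16, 7.68 and 8.34 with vehicle. Log2 fold changes were 7.07 ± 0.31, adjusted p = 2.97e-07 against DHT and 7.38 ± 0.26, adjusted p = 1.09e-07 against vehicle (edgeR), and PC3 replicate 3 was the highest library. ITGA6 (chromosome 2, 172427354 to 172506459), whose product pairs with beta1 or beta4, varied little between PC3 libraries, at 639, 674 and 626 CPM. LNCaP cells held 42.5, 44 and 40.8 CPM with DHT and 51.8, 47.2 and 51.6 with vehicle, with log2 fold changes of PC3 cells of 3.92 ± 0.07, adjusted p = 1.21e-08 and 3.66 ± 0.07, adjusted p = 1.35e-08 (edgeR). ITGB4 (chromosome 17, 75721328 to 75757818), the beta chain of hemidesmosomes, varied most between PC3 libraries, with 136, 84.7 and 284 CPM. Its LNCaP level was 2.96, 2.40 and 1.69 CPM with DHT and 3.77, 3.15 and 2.88 with vehicle. The log2 fold changes of ITGB4 were 6.14 ± 0.55, adjusted p = 1.46e-05 and 5.67 ± 0.52, adjusted p = 1.90e-05 (edgeR), and without PC3 replicate 3 they were 5.52 and 5.04. ITGA7, the laminin receptor of muscle, stood at 14.2 ± 0.496, 1.62 ± 0.277 and 1.22 ± 0.0483 CPM (SD, n = 3) in PC3, DHT and vehicle, with log2 fold changes of 3.12 and 3.51, and 7.42% of the 74-base stretches of its transcripts are not unique to the gene.

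The RGD-binding subunits did not move as a block: ITGAV was lower in PC3 cells, ITGA2B and ITGB8 were higher, and ITGA5 was close between the lines. ITGAV (chromosome 2, 186590010 to 186680901), which pairs with 5 different beta chains of the table, had 54.5, 53.2 and 57.8 CPM in PC3 cells, 666, 542 and 569 with DHT and 114, 106 and 113 with vehicle. The 3 groups were fully separate, with PC3 lowest and DHT highest. On the log2 scale PC3 cells lay -3.44 ± 0.10, adjusted p = 4.51e-08 from DHT and -1.03 ± 0.06, adjusted p = 1.91e-06 from vehicle (edgeR). The second value lies at the limit of the rule, since with only genes of at least 10 counts in every library it was -0.99 and no longer called. Its partner ITGB5, of the vitronectin receptor, had 96.9, 88.9 and 109 CPM in PC3 cells, 51.3, 50.4 and 50.7 with DHT and 37.2, 38.6 and 36.6 with vehicle. The log2 fold change of ITGB5 was 0.94 ± 0.08, adjusted p = 1.63e-05 against DHT, not called, and 1.37 ± 0.09, adjusted p = 2.55e-06 against vehicle, called (edgeR), and without PC3 replicate 2 the first was 1.01 and called. ITGB8 (chromosome 7, 20330702 to 20415754), a partner of the alpha V chain in the activation of latent TGF-beta, had 469, 509 and 427 counts in PC3 cells, 18, 14 and 8 with DHT and 3, 1 and 2 with vehicle. PC3 cells exceeded DHT on the log2 scale by 4.90 ± 0.24, adjusted p = 4.76e-07 (edgeR), and vehicle, where no library passed 3 counts, by 187-fold (95% counting interval 85.6 to 509.9).

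ITGA5 (chromosome 12, 54395261 to 54419266), the alpha chain of the classical fibronectin receptor, had 23.8, 28.1 and 26.6 CPM in PC3 cells, 36.6, 39.6 and 31.7 with DHT and 31.1, 32.5 and 29.9 with vehicle. All PC3 libraries were below all LNCaP libraries, but by less than the fold change of 2: -0.47 ± 0.11, adjusted p = 0.00359 against DHT and -0.28 ± 0.09, adjusted p = 0.0182 against vehicle on the log2 scale (edgeR). ITGA2B, the alpha chain of the platelet fibrinogen receptor, was found in the epithelial line PC3 at 7.46, 8.36 and 5.55 CPM, and at 0.647, 0.441 and 0.348 with DHT and 1.1, 1.01 and 0.943 with vehicle. The groups were separate, in the order PC3, vehicle, DHT, with log2 fold changes of PC3 of 3.86 and 2.78. Of 4 platelet transcripts, 0 were detected in PC3 cells, with GP1BA, GP9 and PPBP at 0 in each PC3 library. Their summed level was 0.045 to 0.16 CPM in PC3 cells, 0.546 to 1.11 with DHT and 0 to 0.0523 with vehicle.

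ITGB1 (chromosome 10, 32887273 to 33005792), the beta chain shared by 12 of the 23 known pairs formed by these subunits, was high in every group. It had 1084, 1066 and 1137 CPM in PC3 cells, 542, 549 and 539.6 with DHT and 444, 450.3 and 433 with vehicle, with little spread within each group and no overlap between them. Its log2 fold change was 1.29 ± 0.07, adjusted p = 6.89e-07 against vehicle and 1.00 ± 0.07, adjusted p = 3.08e-06 against DHT (edgeR), where the unrounded value lay just under the limit and ITGB1 was not called. Without PC3 replicate 1 (1.00), without PC3 replicate 2 (1.03) or without DHT replicate 2 (1.01) it was called. It was also called with no filter (1.01), with at least 10 counts in every library (1.04) and with unstranded counts (1.00). For ITGB1, 8.94% of the 74-base stretches are not unique to the gene.

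Of the chains known from leukocytes, ITGAE and ITGB2 passed the filter. ITGB2 (chromosome 21, 44885953 to 44931989), the beta2 chain of leukocyte integrins, had 16.3, 16.1 and 21.5 CPM in PC3 cells, 0.601, 0.539 and 0.546 with DHT and 0.576, 1.07 and 0.893 with vehicle. Its log2 fold changes were 4.97 ± 0.20, adjusted p = 2.06e-07 and 4.38 ± 0.23, adjusted p = 8.36e-07 (edgeR). None of its alpha partners ITGAL, ITGAM and ITGAX was detected in PC3 cells, where ITGAL had 0 counts, ITGAM had 1, 2 and 1 and ITGAX had 0, 0 and 2. Of 6 leukocyte transcripts, 2 were detected in PC3 cells, with a summed level of 0.405 to 0.518 CPM and with CD3E and LAPTM5 among those at 0, and 0 were detected in either LNCaP group. ITGAE, the alpha chain that binds E-cadherin on epithelium, stood at 19.3 ± 0.690, 28.6 ± 1.16 and 34.6 ± 2.71 CPM (SD, n = 3) in PC3, DHT and vehicle, lowest in PC3 cells but within the fold change of 2 in both comparisons (-0.58 and -0.87 on the log2 scale).

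Of the integrin activators, both kindlins and TLN2 were higher in PC3 cells, and TLN1 was not called. FERMT2 (chromosome 14, 52857268 to 52952435), kindlin-2, had 585, 429 and 500.0 CPM in PC3 cells, 29.1, 28.4 and 27.4 with DHT and 20.8, 19.6 and 20.8 with vehicle. The LNCaP libraries lay close together, and PC3 cells exceeded them by 4.14 ± 0.13, adjusted p = 6.06e-08 and 4.61 ± 0.13, adjusted p = 4.55e-08 on the log2 scale (edgeR). FERMT1, kindlin-1 of epithelia, had 83.5 ± 3.11 CPM (SD, n = 3) in PC3 cells, 8.72 ± 0.623 with DHT and 16.7 ± 0.498 with vehicle, with log2 fold changes of 3.25 and 2.30. TLN2 followed the order PC3, vehicle, DHT at 17 ± 3.09, 6.84 ± 0.811 and 1.89 ± 0.284 CPM, with 3.15 against DHT and 1.28 against vehicle. TLN1, the talin of most cells, was at 272 ± 12.2, 178 ± 8.55 and 144 ± 5.84 CPM in PC3, DHT and vehicle, and its log2 fold changes of 0.61 and 0.89 did not reach the limit.

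In the complex of ILK, PINCH and parvin, PARVA was higher in PC3 cells in both comparisons and PARVB was lower against vehicle. PARVA, alpha-parvin, had 73.8, 72.1 and 81.9 CPM in PC3 cells, 19.7, 17.7 and 19.1 with DHT and 11.3, 10.1 and 11.7 with vehicle, and was higher in PC3 cells by 2.00 ± 0.08, adjusted p = 2.50e-07 and 2.76 ± 0.09, adjusted p = 8.54e-08 on the log2 scale (edgeR). PARVB, beta-parvin, had 28.9, 28.0 and 25.2 CPM in PC3 cells, 49.0, 51.3 and 50.1 with DHT and 59.2, 55.9 and 55.7 with vehicle, below every LNCaP library. Its log2 fold change was -0.89 ± 0.08, adjusted p = 1.39e-05 against DHT, not called, and -1.08 ± 0.07, adjusted p = 3.69e-06 against vehicle, called (edgeR). The scaffold ILK had a log2 fold change of -0.13 against DHT, not called, and was higher than with vehicle (1.12). LIMS1, which encodes PINCH1, was not called in either (0.25 and 0.45), and 21.4% of its 74-base stretches are not unique to it.

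Among the scaffolds, TGFB1I1 (chromosome 16, 31471585 to 31477960), which encodes the paxillin relative Hic-5, had the largest fitted fold change of the tested genes against DHT, and against vehicle one close to that of ITGB8 (7.46 on the log2 scale), with counting intervals that overlap. It had 1048, 845 and 1279 counts in PC3 cells, 5, 2 and 1 with DHT and 7, 3 and 3 with vehicle. All PC3 libraries were far above, and both LNCaP groups were detected in part. Over summed counts PC3 cells were higher than DHT by 339-fold (95% counting interval 172 to 786) and than vehicle by 195-fold (95% counting interval 114 to 366), and the fitted log2 fold changes were 8.33 ± 0.28, adjusted p = 8.86e-08 and 7.54 ± 0.25, adjusted p = 8.44e-08 (edgeR). With so few LNCaP counts the value against DHT moved to 9.08 without DHT replicate 1 and to 7.20 with unstranded counts. LNCaP libraries held 0.115% to 0.844% of the PC3 level of TGFB1I1, 0.543% to 0.977% of ITGA3, 0.482% to 1.12% of TNS3 and 0.662% to 1.71% of ITGA1. Among LNCaP libraries DHT replicate 1, which had the highest median of the 10 PC3-high transcripts, also held the most ITGA3, TNS3 and ITGA1, whereas TGFB1I1 was highest in vehicle replicate 1. Whether PC3 RNA took part in these low LNCaP levels was not tested.

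The focal adhesion scaffolds PXN, ZYX and VCL were higher in PC3 cells in both comparisons. ZYX, zyxin, which gathers at adhesions under tension, had 1029, 963 and 1198 CPM in PC3 cells, 78.0, 68.2 and 69.9 with DHT and 46.4, 43.2 and 44.8 with vehicle. Its log2 fold changes were 3.87 ± 0.11, adjusted p = 5.11e-08 and 4.55 ± 0.11, adjusted p = 2.37e-08 (edgeR). PXN, paxillin, had 1322 ± 147, 146 ± 4.55 and 99.5 ± 3.32 CPM (SD, n = 3) in PC3, DHT and vehicle, with 3.17 and 3.71 on the log2 scale. VCL, vinculin, which binds talin under force, stood at 832 ± 129, 365 ± 28.1 and 161 ± 8.60 CPM, with 1.18 and 2.35. These 3 genes kept the order PC3, DHT, vehicle, with no overlap between groups. LPXN, leupaxin, was called in both (1.11 and 1.43), but not against DHT without DHT replicate 2 (0.97). BCAR1, p130Cas, was called against vehicle alone, at 1.02, compared with 0.75 against DHT, and the call was lost without PC3 replicate 3 (0.98) or vehicle replicate 2 (0.94). Of its 74-base stretches, 6.44% are not unique to it.

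The kinases PTK2 and PTK2B went in opposite directions. PTK2 (chromosome 8, 140657900 to 141002216), focal adhesion kinase itself, had 328, 325 and 329 CPM in PC3 cells, 121, 124 and 121 with DHT and 108, 109.8 and 111 with vehicle, higher in PC3 cells by 1.41 ± 0.06, adjusted p = 1.74e-07 and 1.55 ± 0.05, adjusted p = 1.11e-07 on the log2 scale (edgeR). PTK2B (chromosome 8, 27311482 to 27459391), its relative PYK2, had 4.39, 3.60 and 5.23 CPM in PC3 cells, 107, 97.7 and 110.1 with DHT and 114, 109 and 112 with vehicle. Every LNCaP library was far above every PC3 library, with log2 fold changes of -4.58 ± 0.14, adjusted p = 5.13e-08 and -4.68 ± 0.13, adjusted p = 3.65e-08 (edgeR). SRC, the kinase that focal adhesion kinase recruits, had 219 ± 25.5, 59.8 ± 1.03 and 55.3 ± 1.39 CPM (SD, n = 3) in PC3, DHT and vehicle, higher in PC3 cells by 1.86 and 1.96.

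Tensins, which tie integrin tails to actin, differed by member. TNS3 (chromosome 7, 47275154 to 47582558) had 189.7, 182 and 185 CPM in PC3 cells, 2.08, 1.62 and 1.84 with DHT and 1.31, 1.17 and 0.893 with vehicle. Its log2 fold changes of 6.63 ± 0.09, adjusted p = 6.56e-09 and 7.34 ± 0.11, adjusted p = 8.18e-09 (edgeR) carried small errors. TNS4, the short tensin of epithelia, had 317, 192 and 549 counts in PC3 cells, 60, 80 and 61 with DHT and 6, 9 and 12 with vehicle, with 2.13 ± 0.35, adjusted p = 0.000607 and 4.91 ± 0.47, adjusted p = 2.56e-05 on the log2 scale (edgeR) and PC3 replicate 3 highest. TNS1 had 101, 120 and 95 counts in PC3 cells, 15, 8 and 6 with DHT and 53, 55 and 73 with vehicle, called against DHT (3.20) and not against vehicle (0.47).

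ITGAV, ILK and VCL rose and TLN2 fell with DHT in LNCaP cells by a fold change of 2 or more. The share of the list called was near that of all genes tested. Of the 45 genes 25 passed the filter, 3 were called higher, 1 lower and 21 not, while 14.0% of all 11697 genes tested were called, 6.54% higher and 7.49% lower. By the adjusted p-value alone 22 of the 25 were called, 14 higher and 8 lower, against 74.9% of all genes. The median log2 fold change was 0.25 over the 25 genes and -0.01 over all genes tested.

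**Figure D3:**
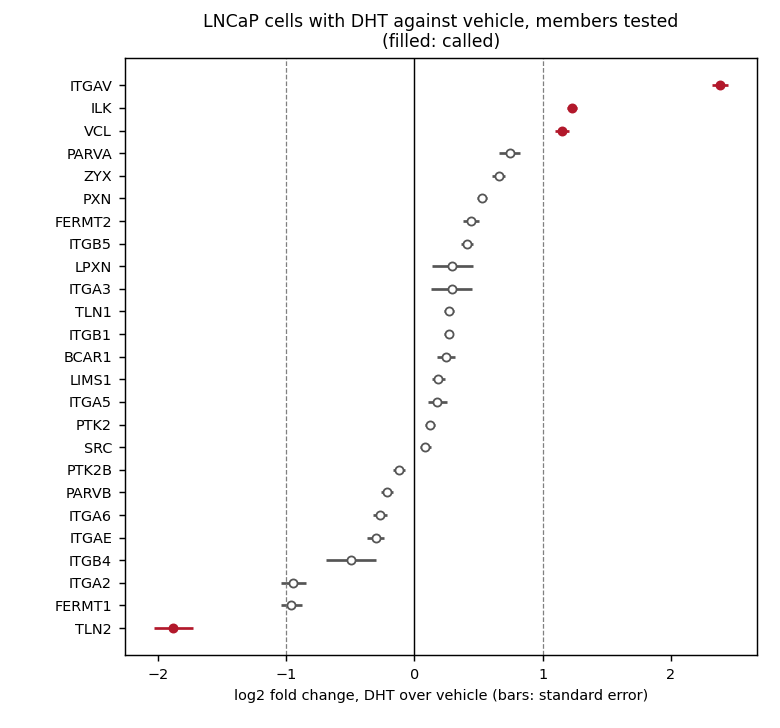
Log2 fold change of LNCaP cells with DHT over vehicle for the 25 genes tested, with bars for the standard error, dashed lines at a fold change of 2 and filled points for called genes. ITGAV stands alone at 2.38, and TLN2 at -1.88 lies below FERMT1 and ITGA2, which end just inside the limit.

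ITGAV rose from 114, 106 and 113 CPM with vehicle to 666, 542 and 569 with DHT, by 2.38 ± 0.06, adjusted p = 2.23e-12 on the log2 scale (edgeR). ITGB5 and ITGB1, beta chains that pair with it, had log2 fold changes of 0.41 ± 0.05, adjusted p = 5.67e-06 and 0.27 ± 0.04, adjusted p = 1.93e-05 (edgeR), which were not called. ILK (chromosome 11, 6603708 to 6610874), the pseudokinase at the core of its complex, rose from 55.8, 55.6 and 55.6 to 135, 134 and 130.4 CPM, by 1.23 ± 0.04, adjusted p = 1.57e-11 on the log2 scale (edgeR). Relative to their level, the replicates of ILK were closer together than those of ITGAV, VCL or TLN2. VCL (chromosome 10, 73995193 to 74121363) rose from 169, 152 and 162 to 382, 332 and 379.7 CPM, by 1.15 ± 0.05, adjusted p = 4.92e-10 (edgeR). TLN2 (chromosome 15, 62390526 to 62844631) fell from 7.17, 5.92 and 7.44 to 2.22, 1.72 and 1.74 CPM, that is -1.88 ± 0.16, adjusted p = 1.55e-07 on the log2 scale (edgeR). With every DHT library under 3 CPM, TLN2 passed the filter through vehicle alone and so had to differ. None of the 4 genes overlapped between the groups, but neither did 16 of the 21 tested genes of the list that were not called. The share of all genes tested without overlap was not counted, and 74.9% of them passed by the adjusted p-value alone (edgeR). Separation of the libraries is therefore not read as a trait of the list.

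The promoters of these 4 genes are shown because they are the members called with DHT. Each line gives the 250 bases before the gene's RefSeq start on GRCh38.p14, 5′ to 3′, with matches to the motifs searched in capitals.
ITGAV, chr2:186589806-186590055, plus strand: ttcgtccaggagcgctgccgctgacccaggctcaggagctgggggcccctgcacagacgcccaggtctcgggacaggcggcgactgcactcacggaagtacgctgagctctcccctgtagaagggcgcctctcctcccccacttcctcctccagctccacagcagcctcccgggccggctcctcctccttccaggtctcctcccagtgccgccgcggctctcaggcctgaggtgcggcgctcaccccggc
ILK, chr11:6603524-6603773, plus strand: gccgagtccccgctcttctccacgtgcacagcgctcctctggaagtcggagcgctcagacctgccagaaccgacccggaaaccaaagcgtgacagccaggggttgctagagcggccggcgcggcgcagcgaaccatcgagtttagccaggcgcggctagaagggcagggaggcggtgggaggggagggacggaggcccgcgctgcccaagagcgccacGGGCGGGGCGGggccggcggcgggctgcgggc
VCL, chr10:73997866-73998115, plus strand: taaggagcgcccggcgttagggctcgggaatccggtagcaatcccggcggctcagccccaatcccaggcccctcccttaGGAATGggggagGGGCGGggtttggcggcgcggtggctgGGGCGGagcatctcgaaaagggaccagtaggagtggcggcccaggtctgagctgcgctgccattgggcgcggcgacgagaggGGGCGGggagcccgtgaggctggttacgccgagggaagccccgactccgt
TLN2, chr15:62390300-62390549, plus strand: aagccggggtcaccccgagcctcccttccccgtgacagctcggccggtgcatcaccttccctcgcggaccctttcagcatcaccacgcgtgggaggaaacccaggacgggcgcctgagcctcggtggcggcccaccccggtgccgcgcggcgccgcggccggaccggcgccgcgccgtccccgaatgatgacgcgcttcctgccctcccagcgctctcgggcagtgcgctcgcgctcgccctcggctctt
Both strands were searched for the androgen receptor half-site AGAACA, the TEAD site GGAATG, the GC box GGGCGG and the CArG box of serum response factor. The ILK window held 2 overlapping GC boxes, which begin at -32 and -27 from the start. In VCL a TEAD site began at -171 and GC boxes at -159, -132 and -50. ITGAV and TLN2 showed no match in these windows, and ITGAV has a further RefSeq start that is not shown. Among the 31 of 45 genes with an entry, AGAACA occurred in 16.1% of the genes (ITGA10, ITGA6, ITGB6, LIMS1 and TNS1) and in 12.4% of all 35116 promoter windows. GGAATG occurred in 19.4% and 11.9%, GGGCGG in 64.5% and 42.6%, and the CArG box in 6.45% (ITGB6 and TGFB1I1) and 1.16%. A gene of the list counted once if any of its windows matched, whereas the share of all promoters is over single windows. The paired percentages are therefore not like for like. These are letter matches and not measured sites.

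Several genes had a small but steady difference with DHT. ITGA2 went from 14.2, 13.8 and 13.7 to 8.46, 7.01 and 6.61 CPM (-0.94 ± 0.10, adjusted p = 1.57e-06), and FERMT1 from 17.2, 16.3 and 16.5 to 9.34, 8.09 and 8.74 CPM (-0.96 ± 0.08, adjusted p = 2.57e-07, edgeR). Neither was called, but without DHT replicate 1 both were, at -1.04 and -1.0, and 6 genes were called in place of 4. On the other side PARVA (0.74), ZYX (0.66), PXN (0.53) and FERMT2 (0.44) stayed under the limit with adjusted p-values of 3.04e-06, 9.50e-08, 4.53e-08 and 2.27e-05 (edgeR). The kinases were close between DHT and vehicle, at 0.12 for PTK2, -0.12 for PTK2B and 0.09 for SRC. The laminin receptors ITGA3, ITGA6 and ITGB4 stood at 0.29, -0.27 and -0.49. Every DHT library of ITGB4 was under 3 CPM, so that ITGB4, like TLN2, passed the filter through vehicle alone. The filter used CPM before TMM scaling. The remaining tested genes (ITGA5, ITGAE, TLN1, LIMS1, PARVB, LPXN and BCAR1) lay between -0.30 and 0.30.

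With no filter on low counts all 45 genes were tested and 12 were called between DHT and vehicle, against 14.4% of all 20429 genes. The 8 further genes were TNS4, ITGB6, ITGB8, ITGA11, ITGAL and ITGAM, higher with DHT, and TNS1 and ITGA2B, lower. TNS1 and TNS4 went in opposite directions. TNS4 counts were 60, 80 and 61 with DHT and 6, 9 and 12 with vehicle, 6.95-fold higher (95% counting interval 4.63 to 10.8) with DHT (adjusted p = 2.42e-09, edgeR without the filter). TNS1 counts were 15, 8 and 6 with DHT and 53, 55 and 73 with vehicle, 6.69-fold higher (95% counting interval 4.5 to 10.3) with vehicle (adjusted p = 3.58e-09, edgeR without the filter). ITGA2B was 2.11-fold higher (95% counting interval 1.34 to 3.39) with vehicle. ITGA1, TNS3, ITGA7 and ITGA10 did not reach the fold change of 2 in this fit. ITGB2, ITGB7 and TGFB1I1 had adjusted p-values of 0.172, 0.154 and 0.40 (edgeR without the filter).

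The 10 subunits that passed the filter in no comparison are given by their counts, as detected where every library of a group had more than 3 counts and not detected where none had. Over the 25 integrin subunits, 18 were detected in PC3 cells, 20 with DHT and 15 with vehicle, and 6, 4 and 9 were not detected. Such limits and the intervals below cover counting error only.

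**Figure D4:**
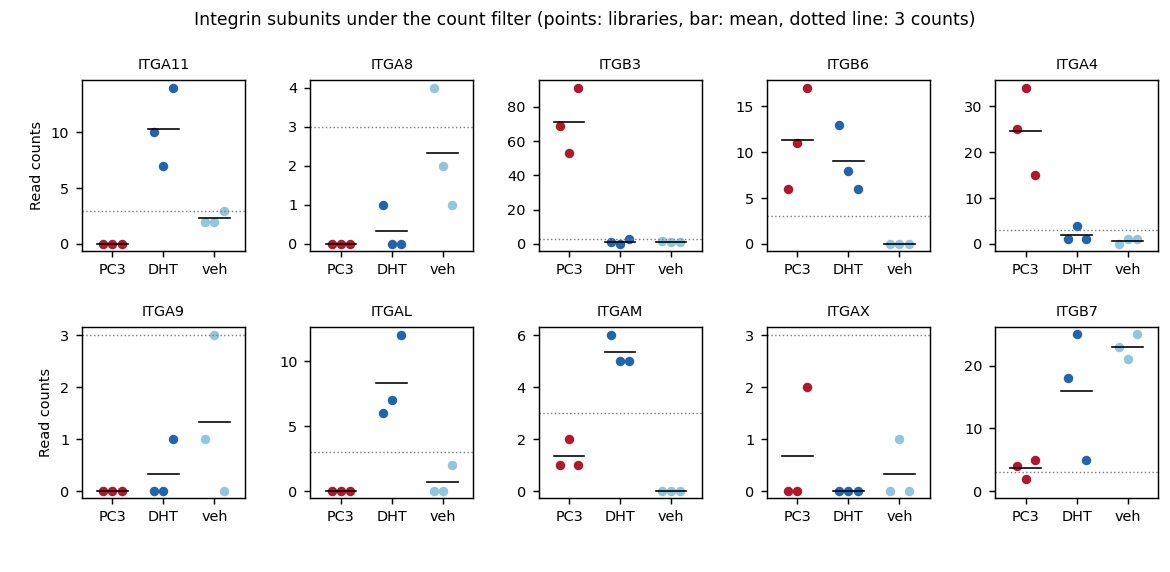
Read counts per library of the 10 integrin subunits that passed the filter in no comparison, with 1 point per library, a bar at the group mean and a dotted line at 3 counts. The scale differs between panels, ITGB3 reaches 91 counts in PC3 cells, and ITGA11, ITGAL and ITGAM pass 3 counts in every DHT library and in no other group.

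ITGB3 (chromosome 17, 47253827 to 47313743), the beta3 chain of the vitronectin and platelet receptors, was detected in PC3 cells (69, 53 and 91 counts) and not detected with DHT (1, 0 and 3) or vehicle (2, 1 and 1). It was 45.5-fold higher (95% counting interval 17.5 to 169) in PC3 cells than with DHT, and 42.5-fold higher (95% counting interval 16.3 to 157) than with vehicle. Its exons overlap another gene on the same strand, and 33.1% of its 74-base stretches are shared, so its level is uncertain. ITGB6, the epithelial beta6 chain that activates TGF-beta, was detected in PC3 cells (6, 11 and 17 counts) and with DHT (13, 8 and 6), and had 0 counts in every vehicle library. It was at least 2.69-fold higher with DHT than with vehicle, counted against 3 counts per library (adjusted p = 7.41e-05, edgeR without the filter), and 13.5% of its stretches are shared with other transcripts. ITGB8, described above, was not detected with vehicle and was 6.22-fold higher (95% counting interval 2.62 to 18) with DHT. ITGA4, the alpha4 chain that binds VCAM1 and fibronectin, was detected in PC3 cells (25, 34 and 15 counts), in part with DHT (1, 4 and 1) and not with vehicle (0, 1 and 1). ITGA4 was 10.5-fold higher (95% counting interval 4.62 to 29.6) in PC3 cells than with DHT, and 29.5-fold higher (95% counting interval 7.89 to 248) than with vehicle.

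Among the low-count alpha chains, 3 were detected with DHT alone. ITGA11, a collagen I receptor best known from fibroblasts, had 10, 7 and 14 counts with DHT, 2, 2 and 3 with vehicle and 0, 0 and 0 in PC3 cells. It was 4.13-fold higher (95% counting interval 1.79 to 11.1) with DHT than with vehicle (adjusted p = 0.00475, edgeR without the filter). Of 6 fibroblast transcripts 1 was detected with DHT and 4 with vehicle, at a summed level of 13.0 to 15.4 and 22.9 to 25.9 CPM, and COL1A2 had 0 counts in both. ITGAL, the alpha chain of LFA-1, had 6, 7 and 12 counts with DHT, 0, 0 and 2 with vehicle and 0, 0 and 0 in PC3 cells, 11.7-fold higher (95% counting interval 2.91 to 102) with DHT than with vehicle (adjusted p = 0.00170, edgeR without the filter). ITGAM, the alpha chain of Mac-1, had 6, 5 and 5 counts with DHT, 0, 0 and 0 with vehicle and 1, 2 and 1 in PC3 cells, at least 1.61-fold higher with DHT than with vehicle. The leukocyte transcripts PTPRC, CD3E and LST1 had 0 counts in all LNCaP libraries.

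Of the last 4 subunits ITGB7 was detected in both LNCaP groups and the other three were detected in every library of no group. ITGB7, the partner of ITGAE and ITGA4, was detected with DHT (18, 25 and 5 counts) and vehicle (23, 21 and 25) and in part in PC3 cells (4, 2 and 5), 7.86-fold higher (95% counting interval 4.13 to 16.5) with vehicle than in PC3 cells. ITGA8, an RGD-binding chain, had 0 counts in PC3 cells, 1, 0 and 0 with DHT and 4, 2 and 1 with vehicle, and was detected in part with vehicle only. ITGA9, which binds tenascin-C, had 0 counts in PC3 cells, 0, 0 and 1 with DHT and 1, 3 and 0 with vehicle, and was detected in no group. ITGAX, a myeloid chain, had at most 2 counts in any library and was detected in no group. Of the 20 adaptors, scaffolds and kinases, all but TGFB1I1 were detected in each group.

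To set subunits side by side, levels were divided by the length of all exonic bases of the gene (CPM per kb). In PC3 cells ITGA3 made up 50.4% and ITGA6 33.8% of the summed level of the 17 alpha chains, at 144 ± 41.7 and 96.7 ± 3.74 CPM per kb (SD, n = 3), which lie about 1 SD of ITGA3 apart. With DHT, ITGAV alone made up 62.7%, at 30.6 ± 3.38 CPM per kb, ahead of ITGA6 with 13.0%. Canonical lengths left ITGAV first with DHT, at 75.4%, but put ITGA5 next, with 7.58%, and ITGA6 at 6.54%. With vehicle the first 4 alpha chains were ITGA6 with 29.0%, ITGAV with 22.2%, ITGAE with 20.2% and ITGA5 with 16.3%. That order depends on the length used, since with the canonical transcript ITGAV led with 34.9% and ITGA6 came after ITGAE with 19.1%. ITGB1 led the 8 beta chains in every group, with 63.0% in PC3 cells, 81.4% with DHT and 82.1% with vehicle. ITGB4 was the next in PC3 cells, with 20.8%, and ITGB5 in both LNCaP groups, with 17% and 15.5%. With the canonical transcript ITGB1 still led, with 83.0% in PC3 cells, 92.1% with DHT and 92.4% with vehicle, ITGB4 made up 8.08% in PC3 cells, and ITGB5 made up 7.24% and 6.57% in LNCaP cells.

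Of the 23 known alpha and beta pairs formed by these subunits, both RNAs were detected for 15 in PC3 cells, 16 with DHT and 11 with vehicle. With the stricter limit of more than 1 CPM in every library the counts were 13, 9 and 10, so that the DHT count rests on subunits of few reads. Without PC3 replicate 2 the PC3 count was 17, because ITGB7 then passed 3 counts. Each pair is given below by the level of its less abundant subunit. In PC3 cells the highest were ITGA3/ITGB1 and ITGA6/ITGB1, with ITGB1 as the lower subunit at 75.3 CPM per kb, and then ITGA6/ITGB4 at 24.9, ITGA2/ITGB1 at 19.9 and ITGA1/ITGB1 at 11.5. With the canonical transcript these 5 pairs kept the first 5 places, but ITGA3 was the lower subunit of ITGA3/ITGB1, at 289 CPM per kb, and ITGA6 that of ITGA6/ITGB1, at 111. The place of ITGA6/ITGB4 rests on PC3 replicate 3, without which ITGB4 was at 16.3 and ITGA2 at 17.7 CPM per kb. With DHT the highest were ITGAV/ITGB1 at 30.6, ITGAV/ITGB5 at 7.80, ITGA6/ITGB1 at 6.35 and ITGA5/ITGB1 at 4.87. With vehicle the values were 7.51 for ITGA6/ITGB1, 5.75 for ITGAV/ITGB1, 5.74 for ITGAV/ITGB5 and 4.22 for ITGA5/ITGB1. ITGA6/ITGB4 in LNCaP cells had ITGB4 as the lower subunit, at 0.348 and 0.483. Canonical lengths put ITGAV/ITGB1 first with vehicle, at 15.8, before ITGA6/ITGB1 at 8.63. They also put ITGA5/ITGB1, at 8.46, before ITGA6/ITGB1, at 7.30, with DHT. These are RNA levels, and protein pairs were not measured here.

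**Figure D5:**
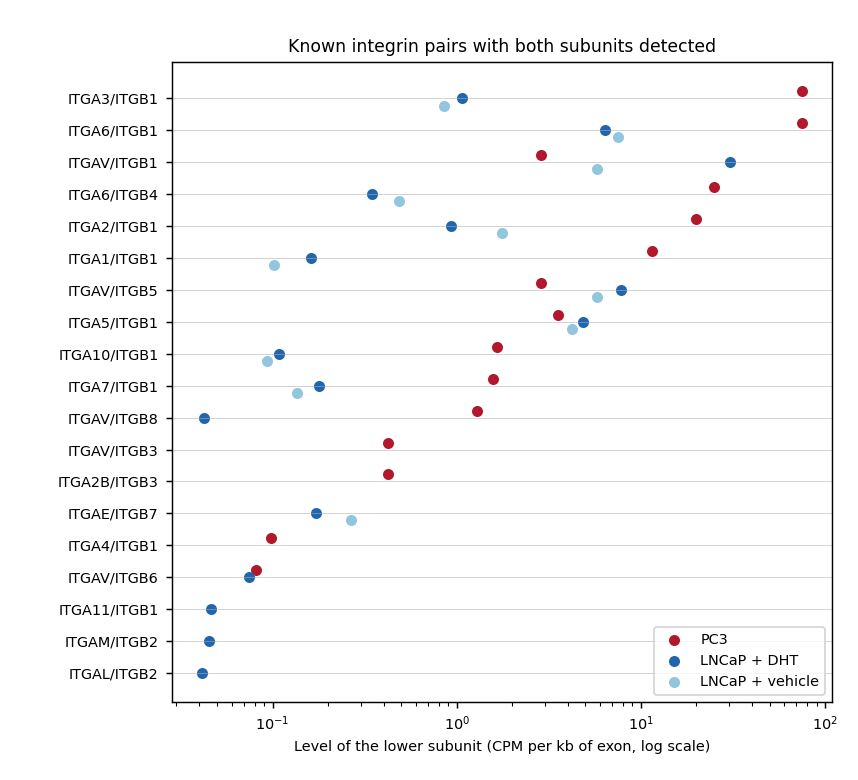
Level of the less abundant subunit, as CPM per kb of exon on a log scale, for the integrin pairs with both subunits detected in at least 1 group, with 1 point per group where both were detected. PC3 cells lead for the collagen and laminin pairs at the top, LNCaP cells with DHT lead for ITGAV/ITGB1 and ITGAV/ITGB5, and ITGA11/ITGB1, ITGAL/ITGB2 and ITGAM/ITGB2 have a DHT point only.

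Other adhesion genes were taken from 2 lists, 53 further adhesome genes and 38 integrin ligands. Of the adhesome genes 49 were tested against DHT, 23 were higher in PC3 cells and 7 lower, and against vehicle 26 of 49 were higher and 5 lower. Over all genes tested 24.0% were higher and 22.1% lower against DHT, and 22.2% and 21.0% against vehicle. The largest rises were FLNC, muscle-type filamin, at 204 ± 21.8 against 0.828 ± 0.964 CPM (SD, n = 3, 7.89 ± 0.42, adjusted p = 8.25e-07), FHL2, a LIM-only scaffold (7.68 ± 0.18, adjusted p = 2.14e-08), and LIMS2, PINCH2 (7.51 ± 0.45, adjusted p = 1.54e-06), all on the log2 scale against DHT (edgeR). FLNC had 5 to 42 counts per DHT library, and its value was 9.51 without DHT replicate 1. These 3 were also the largest rises against vehicle, at 9.16, 9.34 and 6.52, and FLNC was at 9.89 without vehicle replicate 1. The largest fall was EFS, a relative of BCAR1, which had at most 1 count in any PC3 library and 36.5 ± 1.70 CPM with DHT (SD, n = 3). CD9 and LYN followed against DHT (-2.82 and -2.34), and LYN against vehicle (-2.18). FLNC, FHL2 and LIMS2 were under 3 CPM in every LNCaP library and EFS in every PC3 library. They passed the filter through the other cell line alone and had to differ. How many further genes of the adhesome and ligand lists passed in that way was not counted. Between DHT and vehicle 5 of 43 were higher and 0 lower (6.54% and 7.49% of all genes), led by the calpain CAPN2 (1.96 ± 0.07, adjusted p = 4.02e-11), PPFIBP1 (1.72 ± 0.05, adjusted p = 5.77e-12) and PDLIM5 (1.60 ± 0.06, adjusted p = 9.26e-11, edgeR).

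Of the ligands 30 were tested against DHT, 23 were higher in PC3 cells and 3 lower, and 23 of 29 were higher than with vehicle and 0 lower. The same shares of all genes hold as for the adhesome list, 24.0% and 22.1% against DHT and 22.2% and 21.0% against vehicle. TNC, tenascin-C, stood at 226 ± 40.5 in PC3 cells and 0.529 ± 0.703 CPM with DHT (SD, n = 3), 8.67 ± 0.45, adjusted p = 7.21e-07 on the log2 scale (edgeR). TGFB1 (8.52 ± 0.26, adjusted p = 5.95e-08) and COL6A3 (8.41 ± 0.50, adjusted p = 1.46e-06) came next (edgeR), and the falls were LAMA1 (-7.31, or -8.35 without PC3 replicate 1), LAMC1 (-2.46) and ADAM9 (-2.28). The 3 rises rest on few DHT counts, 2 to 29 per library for TNC, 3 to 13 for TGFB1 and 0 to 24 for COL6A3, highest in DHT replicate 1. Without that library the fitted log2 fold changes were 10.76, 9.27 and 12.15. DHT replicate 1 also had the highest median of the PC3-high transcripts, and the part of PC3 RNA in these counts was not tested. Against vehicle the largest rises were CCN2, COL6A3 and TGFB1, at fitted log2 fold changes of 10.36, 10.08 and 9.60 that rest on 0 to 5 vehicle counts per library. Without vehicle replicate 1, COL6A3 was at 10.69, and CCN2 had 0 counts in the remaining vehicle libraries. These rises came from genes under 3 CPM in every library of the LNCaP group compared, and LAMA1 was under 3 CPM in every PC3 library. Such genes passed the filter through the other cell line alone and had to differ. They are included in the counts of ligands called, and how many more of these ligands passed in that way was not counted. Between DHT and vehicle 6 of 16 were higher and 1 lower, against 6.54% and 7.49% of all genes. The laminin chain LAMA1 went from 1.39 ± 0.285 to 29.0 ± 8.0 CPM (SD, n = 3, 4.34 ± 0.24, adjusted p = 3.07e-09), and LAMB3 from 0.170 ± 0.103 to 3.70 ± 0.723 CPM (4.35 ± 0.33, adjusted p = 6.80e-08, edgeR). THBS1, a ligand of several integrins, rose by 1.67 ± 0.17, adjusted p = 1.26e-06 on the log2 scale (edgeR). FN1, fibronectin, fell from 424 ± 21.8 to 109 ± 6.59 CPM (-1.99 ± 0.06, adjusted p = 5.21e-12, edgeR). LAMA1, LAMB3 and THBS1 were under 3 CPM in every vehicle library, passed the filter through DHT alone and so had to differ.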

How the data were processed

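RNA-seq of polyadenylated RNA was analysed in 9 libraries, 3 each of PC3 cells, LNCaP cells with DHT and LNCaP cells with vehicle. The authors deposited read counts per gene, not normalized, made per the submitters' processing notes with cutadapt 4.1, STAR 2.7.7a and UMI-tools 1.1.2 on GRCh38. The annotation was not given in the sources used here. All 253944 values of the table equalled the forward-strand column of the deposited per-library counts, and the reverse strand held at most 3.06%. Reads not assigned to a single gene, for any reason, made up 20.3% to 25.4% and were left out. The batch term of the study was not used, since the sources used here do not say what it was.

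Genes with more than 3 CPM in at least 3 of the 6 libraries compared were tested with the quasi-likelihood test of edgeR 4.0.16 (R 4.3.3) with TMM factors and Benjamini-Hochberg adjustment over all genes tested. Genes were called at a fold change of 2 or more with an adjusted p-value under 0.05. Standard errors are the log2 fold change over the root of F. Alternatives used DESeq2 1.42.0, other filters, scalings and strands, and each library left out. Members and lists were chosen with earlier results of these data known. Every member may be named, of the other lists the 3 largest rises and falls per comparison, apart from items not reported here. Folds of low-count genes are ratios of summed counts over summed library sizes with exact 95% intervals. Lengths and positions come from GENCODE 44, which holds 25696 of the 28216 symbols and all 45 members. Promoters are from RefSeq.

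The test was checked on simulated counts with 100 genes changed at each of 2 sizes. Of the genes changed by 1.5 on the log2 scale 96 were recovered for PC3 against DHT (12156 genes), 99 for PC3 against vehicle (12291 genes) and 100 for DHT against vehicle (11548 genes). False calls among the genes left unchanged were 4, 0 and 0. DHT and vehicle libraries with the same number in the labels deviated together over 10015 genes (r = 0.157, 0.237 and 0.216). With different numbers r was -0.271 to 0.101. PC3 and DHT libraries of different numbers reached 0.225 and 0.203, so these values cannot decide whether the numbers pair libraries.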

Additional observations from a re-analysis of the deposited data

Results flagged for a closer look

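Reads on the strand opposite to ITGA9 were outside the measurement used in the comparisons and lay above the PC3 libraries, which had 0 such counts. The 3 LNCaP libraries with DHT held 30 reverse-strand counts in all, 7 to 13 per library, beside 1 forward count. Those with vehicle held 28, 5 to 15 per library, beside 4 forward counts. The antisense gene ITGA9-AS1 has an entry of its own in the table.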

How the results depend on the processing

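All 1321 recomputed log2 fold changes of the 95 results on single genes kept their direction, and 13 in 7 of these results crossed the fold change of 2 or its test. Between DHT and vehicle 4 genes were called, 22 by the adjusted p-value alone and 12 with no filter on low counts. The pairs with both subunits detected with DHT, 16 as reported, were 9 with more than 10 counts and 9 with more than 1 CPM in every library. The cause of these shifts was not tested. Leaving out 1 library gave 26 to 28 called genes for PC3 against DHT, 29 to 30 against vehicle and 4 to 6 for DHT against vehicle, and 15 to 17 pairs in PC3 cells, 16 to 16 with DHT and 11 to 11 with vehicle. With the replicate number as a block, 26, 30 and 4 genes were called in the 3 comparisons, as without it. PC3 and LNCaP libraries of the same number had r = -0.0602, 0.0561 and -0.199 with DHT, and 0.0837, -0.208 and -0.0209 with vehicle. Of 270 levels per kb recomputed with another length, 197 moved by more than the replicate spread. Depth limits what can be said of subunits under about 3 counts. Leaving out 1 library was also tried for the named genes of the adhesome and ligand lists and for PC3 levels per kb, a choice made after seeing the data, and no call of these genes was lost.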
